A study of Mus musculus with 13 samples.

Results

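The genes of the translation initiation factors, eIF1 to eIF6, were followed in nuclei and cytoplasms of mouse oocytes with and without the RNA helicase MTR4. Members were all rows whose symbol starts with Eif1 to Eif6, leaving out the Argonaute genes listed as Eif2c, the eIF4E transporter gene Eif4enif1 and pseudogenes. This rule gave 53 of the 23235 genes in the table, and no measured value entered it. The libraries were polyadenylated RNA copied with Smart-seq2, a low-input method, from 10 nuclei or 10 cytoplasms each, which had been parted by micromanipulation. The groups were MTR4-null nuclei (2 libraries, day 21), WT nuclei (2 libraries at day 14 and 3 at day 21), MTR4-null cytoplasms (2 libraries, day 21) and WT cytoplasms (2 libraries at day 14 and 2 at day 21). The sources used here name neither the allele behind the loss of MTR4 nor the strain.

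The deposited table holds 4 columns, 1 for each genotype and compartment, so that no spread between libraries could be computed and no difference below has a replicate check. The columns are the authors' values, named FPKM, and the WT columns name no day: genotype and age cannot be told apart. How many libraries each column combines is not stated. Column totals were 1396110 in the MTR4-null nucleus and 594034 in the WT nucleus, and 3007240 in the MTR4-null cytoplasm and 6637350 in the WT cytoplasm. The columns are therefore not on a common scale. To rescale them, every gene's value was set against its geometric mean over the 4 columns, and the median of these ratios served as the divisor of a column. Differences are between log2 values after adding 1, and a size of 1 (2-fold) was the threshold for a call. Such differences place a gene against the typical gene and cannot show a change of total RNA. As a check of the labels, Skiv2l2, which encodes MTR4, had 3.54 in the MTR4-null nucleus and 13.3 in the WT nucleus, and 4.36 in the MTR4-null cytoplasm and 187 in the WT cytoplasm. Of 12 oocyte markers, none was at 0 in any column. They made up 1.70% of the MTR4-null nucleus and 2.08% of the WT nucleus, and 2.60% of the MTR4-null cytoplasm and 3.51% of the WT cytoplasm. The 16 granulosa cell markers made up 0.00187% of the MTR4-null nucleus and 0.00317% of the WT nucleus, and 0.00930% of the MTR4-null cytoplasm and 0.00708% of the WT cytoplasm. The 6 nuclear RNA markers made up 0.0306% of the MTR4-null nucleus and 0.00545% of the WT nucleus, and 0.00702% of the MTR4-null cytoplasm and 0.00104% of the WT cytoplasm, with 1 of them at 0 in each column. Their share was thus higher in the MTR4-null cytoplasm than in the WT nucleus. Malat1 alone had 364 of their summed 427 in the MTR4-null nucleus, and 9.83 of 69.2 in the WT cytoplasm. The part of all these markers in the results below was not tested.

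Initiation is the step at which a ribosome is placed on the start codon of an mRNA. eIF2 brings the initiator tRNA to the small ribosomal subunit, with eIF1, eIF1A, eIF3 and eIF5 bound, while eIF4E, eIF4G and eIF4A hold the capped mRNA end and unwind it. eIF2B recharges eIF2 with GTP, eIF2 kinases and eIF4E-binding proteins (4E-BPs) slow the process, and eIF5B joins the large subunit, from which eIF6 has to leave. Growing oocytes build up a store of mRNA, much of it kept silent until the egg matures, and control of translation then takes the place of transcription.

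The eIF2B subunit genes code for parts of one complex and yet differed in the comparisons below. For this reason the promoters of 4 of the 5, all but Eif2b3, are shown. They come from RefSeq tables of build GRCm38.p6 (the submitters' notes name mm9 for the study), each from 120 bases before to 30 bases after the table's transcript start, and capitals mark the letters CCGGAAG, the core bound by ETS factors.
Eif2b1 (minus strand, chr5:124579102-124579251): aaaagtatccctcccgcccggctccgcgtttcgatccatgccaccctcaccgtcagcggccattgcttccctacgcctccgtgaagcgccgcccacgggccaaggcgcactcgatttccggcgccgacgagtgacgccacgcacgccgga
Eif2b2 (plus strand, chr12:85219361-85219510): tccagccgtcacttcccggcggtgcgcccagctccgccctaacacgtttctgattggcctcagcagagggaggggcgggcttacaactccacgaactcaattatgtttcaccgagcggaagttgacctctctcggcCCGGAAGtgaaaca
Eif2b4 (minus strand, chr5:31193110-31193259): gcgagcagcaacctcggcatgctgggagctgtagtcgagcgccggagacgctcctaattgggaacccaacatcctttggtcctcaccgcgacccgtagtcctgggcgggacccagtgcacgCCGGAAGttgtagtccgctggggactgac
Eif2b5 (plus strand, chr16:20498697-20498846): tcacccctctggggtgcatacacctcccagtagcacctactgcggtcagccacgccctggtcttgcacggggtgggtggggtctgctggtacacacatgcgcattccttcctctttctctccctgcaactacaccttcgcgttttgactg

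The letters were searched on both strands of the whole table window, from 250 bases before to 50 bases after the start. CCGGAAG lay in the windows of 15 of 42 member genes with an entry (35.7%), against 9.93% of all 27025 genes in the promoter table and 18.3% of the 10017 that passed the filter on low values described next. The E-box letters CACGTG, bound by factors such as MYC, USF1 and TFE3, lay in those of 10 of the 42 (23.8%), against 8.09% of all genes in the table and 11.4% of those that passed the filter, and 3 members, Eif1b, Eif5a and Eif5a2, held both. Of the 4 eIF2B genes shown, Eif2b2 and Eif2b4 held CCGGAAG within the first 30 transcribed bases, and the window of each other gene held neither motif. Whether the motifs bear on the differences below was not tested.

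Genes that reached 1 in 2 or more columns were kept, 14240 in all. This filter passed 52 of the 53 members, and none of these 52 was under 1 in both WT columns. The member left out was Eif2s3y, the Y-linked gene of the eIF2 gamma subunit, which was listed at 0 in all 4 columns, while its X-linked partner Eif2s3x had 35.1 in the MTR4-null nucleus, 18.1 in the WT nucleus, 166 in the MTR4-null cytoplasm and 224 in the WT cytoplasm. Members made up 0.477% of the column total in the MTR4-null nucleus and 0.749% in the WT nucleus, and 0.718% in the MTR4-null cytoplasm and 0.954% in the WT cytoplasm. Their median value was 65.3 in the MTR4-null nucleus and 39.2 in the WT nucleus, against 13.04 and 5.04 for all kept genes. It was 225 in the MTR4-null cytoplasm and 597 in the WT cytoplasm, against 39.3 and 58.7 for all kept genes. Initiation factor genes thus belonged to the more abundant mRNAs of the oocyte in every column.

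The highest members in the WT cytoplasm were Eif1b, a close relative of the scanning factor gene Eif1, with 5366, Eif5a, whose product carries the modified lysine hypusine and helps peptide bonds form, with 5141, and Eif6, which keeps the large subunit apart, with 4210. In the MTR4-null cytoplasm these 3 had 2634, 1570 and 563. Eif1b stayed in first place there among the members, Eif5a was the third, and Eif6 was number 10. In the MTR4-null nucleus Eif5a led with 579, followed by Eif1 with 552, and in the WT nucleus Eif1 led with 404, followed by Eif1b with 383. Eif6 took place 8 in the MTR4-null nucleus and place 5 in the WT nucleus.

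**Figure D1:**
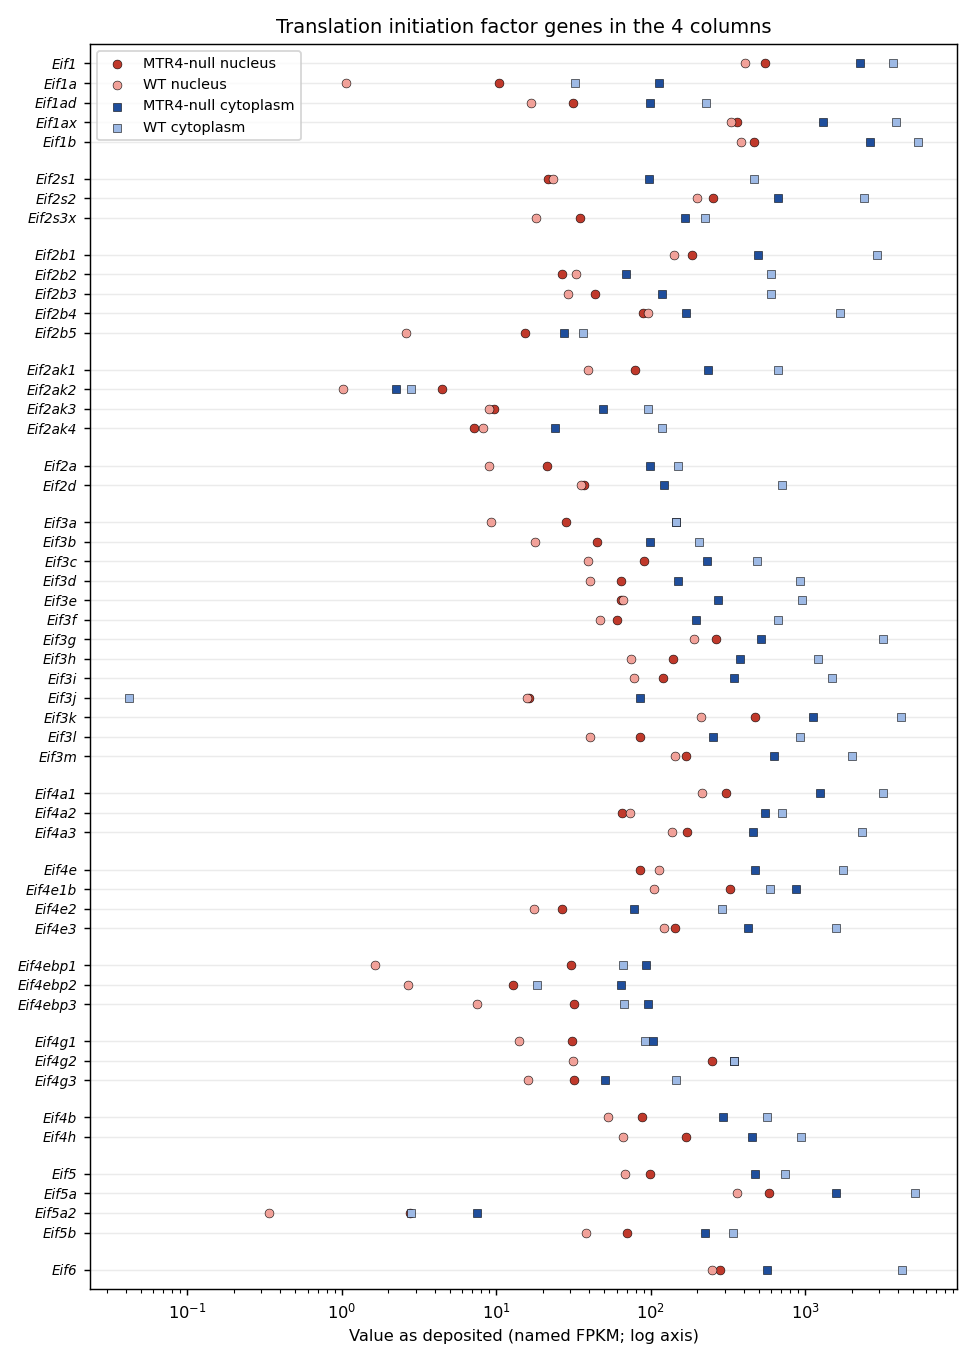
Values of the 52 initiation factor genes that passed the filter, as deposited, on a log axis, by factor from eIF1 (top) to eIF6 (bottom). Each row holds 1 gene and its 4 columns; the WT cytoplasm is the highest column for most genes, and its value of 0.0422 for Eif3j lies far to the left.

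Against WT, the MTR4-null oocytes had more mRNA of the inhibitors of the cap-binding step relative to the typical gene. The typical gene here is that of all levels, and counts among genes of like level are given with the 4E-BPs below. All 3 genes of the 4E-BPs, which block eIF4E, were at least 2-fold higher in the MTR4-null cytoplasm (1.34 to 2.499 on the rescaled log2 scale), and 2 of them in the nucleus, where the third had 0.96. The cap-binding gene Eif4e was lower in both. In the MTR4-null cytoplasm, 4 of 5 eIF2B subunit genes and Eif6 were lower. Over all members, 6 were at least 2-fold higher in the MTR4-null nucleus and 9 lower (17 and 0 as deposited), against 25.6% higher and 16.4% lower among all kept genes (46.3% and 3.69% as deposited). The cytoplasm had 8 members that were at least 2-fold higher and 13 lower (4 and 32 as deposited), against 23.9% and 19.0% of all kept genes (14.9% and 43.7% as deposited). The member median was -0.46 in the nucleus, against 0.045 over all kept genes, and -0.54 in the cytoplasm, against 0.041. After quantile normalization the member medians were -0.27 and -0.30 (all kept genes -0.048 and -0.076), and as deposited 0.63 and -1.43 (all kept genes 0.91 and -0.79). Without members that have a near-identical copy they were -0.22 and -0.29. The members' median lay below that of all kept genes under each of these settings. The share of higher members, 11.5% in the nucleus and 15.4% in the cytoplasm, was thus below that of all kept genes, and the share of lower members, 17.3% and 25.0%, was near it or above it. The calls depend on the scale. As deposited no nuclear lower call held, with Eif2d (0.061) and Eif3j (0.054) turning in sign, and the cytoplasmic calls of Eif4ebp1 (0.49), Eif4ebp3 (0.51), Eif4e1b (0.54) and Eif4g1 were below 2-fold. In ratios between genes of one column, given below, a single factor per column cancels, but these ratios were chosen after values had been seen. Their shifts follow from the values of the genes chosen and are no further support for the calls.

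The differences were also set against the level of the genes. Among all kept genes with a WT cytoplasm value of at least 1000, the nuclear median was -0.56 and the cytoplasmic one -0.78, and for the 17 members in that range they were -0.78 and -0.996. From 200 to below 1000 they were -0.41 and -0.55 for all kept genes, and -0.37 and -0.29 for 21 members. From 50 to below 200 they were -0.060 and -0.066 for all kept genes, and 0.096 and 0.57 for 8 members, so that members were not lower there. Below 50 they were 0.73 and 0.67 for all kept genes, and 1.21 and 1.99 for 6 members. The Spearman correlation of the nuclear difference with the WT cytoplasm value, which share no column, was -0.50 over the 52 members and -0.44 over the 14240 kept genes. These genes come from the same 4 columns and are not independent. The cytoplasmic difference contains the WT cytoplasm value, so part of its trend is built in. The nuclear difference contains the WT nucleus, where 11760 of the 14240 kept genes lay within 2-fold of the WT cytoplasm after rescaling. What the 2 WT columns share can therefore enter the nuclear trend too, and its part was not tested. The part of level in each call below was not tested.

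**Figure D2:**
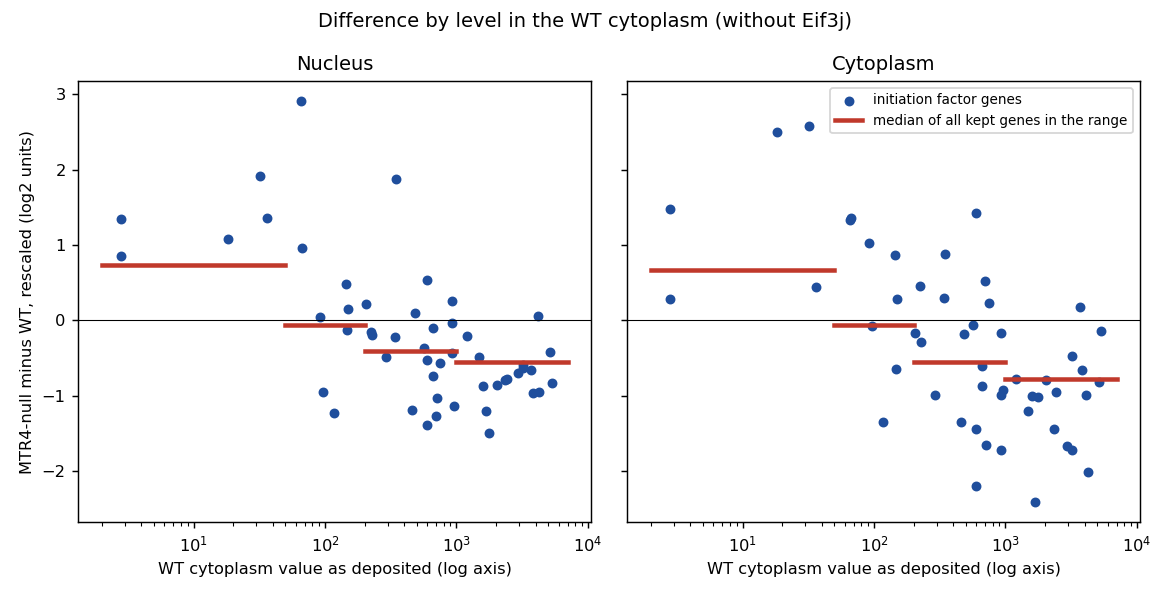
Rescaled log2 difference of MTR4-null minus WT (vertical axis) against the WT cytoplasm value as deposited (log axis), in the nucleus (left) and the cytoplasm (right). Points are 51 initiation factor genes and red lines the median of all kept genes in each range of level, which lay at 0.73 below 50 and at -0.56 from 1000 upwards in the nucleus.

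The eIF1 family selects the start codon while the small subunit scans. Eif1a and Eif1ax both encode eIF1A, and they differed widely. Eif1a had 10.4 in the MTR4-null nucleus and 1.07 in the WT nucleus, and 114 in the MTR4-null cytoplasm and 32.3 in the WT cytoplasm, so that it was higher in both MTR4-null columns (rescaled 1.92 and 2.58). The more abundant Eif1ax had 362 and 330 in MTR4-null and WT nuclei, and 1309 and 3838 in the cytoplasms (rescaled -0.97 and -0.66, both short of 2-fold). The ratio of Eif1a to Eif1ax within a column, in which any factor of the column cancels, was 0.0287 in the MTR4-null nucleus and 0.00325 in the WT nucleus, and 0.0867 in the MTR4-null cytoplasm and 0.00842 in the WT cytoplasm. By MTR4-null to WT ratio, Eif1a held places 2 (nucleus) and 3 (cytoplasm) from the highest among the members, and Eif1ax 42 and 29. A shift of their ratio was thus fixed by the choice of this pair. Eif1a is on chromosome 18 and Eif1ax on X. Eif1, Eif1b and Eif1ad, whose product has an eIF1A-like domain, lay between -0.83 and 0.18 in both compartments.

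eIF2 holds the initiator tRNA. Of its alpha, beta and gamma subunit genes, only the alpha gene Eif2s1 passed 2-fold, with 21.6 in the MTR4-null nucleus and 23.4 in the WT nucleus, and 96.8 in the MTR4-null cytoplasm and 463 in the WT cytoplasm (rescaled -1.19 and -1.35). Eif2s2 (beta) had rescaled differences of -0.78 and -0.96, and Eif2s3x (gamma) -0.15 and 0.45. The 3 subunit genes thus differed in these single values. Each has a near-identical copy in another gene. The longest matched 949 bases at 96.8% identity for Eif2s1, 992 at 99.5% for Eif2s2 and 1350 at 100% for Eif2s3x. How reads were shared with these copies was not tested. Eif2d, which can place tRNA on the small subunit without eIF2, had 36.8 in the MTR4-null nucleus and 35.2 in the WT nucleus, and 121 in the MTR4-null cytoplasm and 712 in the WT cytoplasm (rescaled -1.03 and -1.65). Eif2a, which despite its symbol is no subunit of eIF2, had rescaled differences of 0.15 and 0.28.

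eIF2B is the exchange factor of eIF2, and all 5 of its subunit genes were called in at least 1 compartment, where 59.1% of all kept genes were called too. In the cytoplasm 4 of the 5 were at least 2-fold lower in MTR4-null, against 19.0% of all kept genes. These 4 had WT cytoplasm values from 596 to 2919. Of all kept genes from 200 to below 1000 there, 30.6% were at least 2-fold lower, and from 1000 upwards 39.1%. The share was 9.63% below 50, the range of the fifth gene. The part of level was not tested. Eif2b4 (delta) had the lowest ratio of MTR4-null to WT among the 52 members there, with 169 in MTR4-null and 1681 in WT (rescaled -2.41), followed by Eif2b2 (beta) with 68.9 and 596 (-2.19). Eif2b1 (alpha) had 493 in the MTR4-null cytoplasm and 2919 in the WT cytoplasm (-1.67), and Eif2b3 (gamma) 118 and 597 (-1.44). The fifth gene, Eif2b5, codes for the catalytic epsilon subunit. It had 27.6 in the MTR4-null cytoplasm and 36.5 in the WT cytoplasm (0.45). In the nucleus the MTR4-null and WT values were 89.1 and 96.0 for Eif2b4 (-1.21), 26.7 and 32.8 for Eif2b2 (-1.38), and 15.4 and 2.62 for Eif2b5 (1.36). Eif2b1 (-0.70) and Eif2b3 (-0.53) stayed within 2-fold there. Eif2b5 was by far the least abundant of the subunit genes. Its ratio to the mean of the other 4 was 0.179 in the MTR4-null nucleus and 0.0350 in the WT nucleus, and 0.130 in the MTR4-null cytoplasm and 0.0252 in the WT cytoplasm. In both compartments the MTR4-null to WT ratio of Eif2b5 was above that of each of the other 4. A higher value of this ratio to their mean in MTR4-null was thus fixed by the choice of genes. As deposited, Eif2b5 was also lower in the MTR4-null cytoplasm, and its direction there turns with the scale of the columns.

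The 4 eIF2 kinases phosphorylate eIF2 alpha under different stresses. Eif2ak4, the gene of GCN2, which senses uncharged tRNA, had 7.21 in the MTR4-null nucleus and 8.21 in the WT nucleus, and 23.8 in the MTR4-null cytoplasm and 118 in the WT cytoplasm (rescaled -1.22 and -1.35). Eif2ak1 (HRI, regulated by heme), the most abundant kinase gene, had 235 in the MTR4-null cytoplasm and 663 in the WT cytoplasm (-0.60). Eif2ak3 (PERK, of the endoplasmic reticulum) had 49.0 and 95.7 (-0.07). The fourth kinase gene, Eif2ak2, encodes PKR, which binds double-stranded RNA and is induced by interferon. It had low values, 4.46 in the MTR4-null nucleus and 1.02 in the WT nucleus, and 2.23 in the MTR4-null cytoplasm and 2.79 in the WT cytoplasm, and no call against WT (0.86 and 0.28). On the rescaled scale with 1 added, Eif2ak4 was thus the kinase gene that passed 2-fold against WT. As deposited, Eif2ak2 had 1.44 in the nucleus and Eif2ak1 -1.49 in the cytoplasm.

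eIF3, the largest initiation factor, is the scaffold of the small subunit complex. Of its 13 subunit genes in the table, Eif3j stood far outside the range of the other 12. Without Eif3j, the rescaled differences ran from -1.14 to 0.48 in the nucleus (median -0.33) and from -1.73 to 0.87 in the cytoplasm (median -0.90). In the cytoplasm 11 of the 12 lay below 0 on the rescaled scale, against 6902 of the 14240 kept genes. As deposited all 12 did, against 9857 of the 14240 kept genes. On the rescaled scale 3 (25.0%) were at least 2-fold lower, near the 19.0% of all kept genes. The 12 genes had WT cytoplasm values from 146 to 4134. For all kept genes, the cytoplasmic median was -0.066 from 50 to below 200 there, -0.55 from 200 to below 1000 and -0.78 from 1000 upwards. The part of level was not tested. Eif3g, which binds RNA, had 520 in the MTR4-null cytoplasm and 3191 in the WT cytoplasm (-1.73), Eif3d, which can bind the cap of some mRNAs, 151 and 923 (-1.71), and Eif3i 347 and 1486 (-1.20). Close to the threshold followed Eif3k (-0.996) and Eif3l (-0.99). The exception was Eif3a, the largest subunit, with 145 in the MTR4-null cytoplasm and 146 in the WT cytoplasm (0.87). Its partners in the core, Eif3b and Eif3c, had -0.16 and -0.18. In the nucleus Eif3e was lower, with 63.9 in MTR4-null and 65.8 in WT (-1.14). Eif3a and Eif3g had the highest and the lowest cytoplasmic difference of the 12. A shift of their cytoplasmic ratio was therefore fixed by the choice of this pair. The ratio of Eif3a to Eif3g was 0.107 in the MTR4-null nucleus and 0.0489 in the WT nucleus. It was 0.279 in the MTR4-null cytoplasm and 0.0456 in the WT cytoplasm.

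Eif3j encodes a loosely bound subunit. It had 16.3 in the MTR4-null nucleus and 15.7 in the WT nucleus (rescaled -1.02), and 85.5 in the MTR4-null cytoplasm against 0.0422 in the WT cytoplasm (5.55). Its row cannot be read on its own, since the mouse genome holds a near-identical second copy: in the GENCODE M21 transcripts, Eif3j2 matched 2379 bases at 99.4% identity. RefSeq lists Gm9781 as another name of Eif3j2, and Gm9781 has a row in the table. Gm9781 had 54.0 in the MTR4-null nucleus and 19.5 in the WT nucleus, and 182 in the MTR4-null cytoplasm and 215 in the WT cytoplasm. The sum of both rows was 70.3 in the MTR4-null nucleus and 35.2 in the WT nucleus (rescaled -0.10), and 267 in the MTR4-null cytoplasm and 215 in the WT cytoplasm (1.19). How reads were shared between the copies was not tested.

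eIF4E binds the cap, and 4 genes encode proteins of its family. Eif4e itself had 85.6 in the MTR4-null nucleus and 112 in the WT nucleus, the lowest ratio of all 52 members in that compartment, and 471 in the MTR4-null cytoplasm and 1763 in the WT cytoplasm (rescaled -1.49 and -1.01). The cytoplasmic call lies at the threshold and was -0.64 after quantile normalization. Eif4e2 had 78.4 in the MTR4-null cytoplasm and 291 in the WT cytoplasm, and Eif4e3 had 429 and 1590. Both lay just short of 2-fold there (-0.99 and -0.999). The fourth, Eif4e1b, encodes an eIF4E form found mainly in oocytes, and it went the other way. It had 328 in the MTR4-null nucleus and 105 in the WT nucleus (0.53), and 868 in the MTR4-null cytoplasm and 595 in the WT cytoplasm (1.43). The ratio of Eif4e1b to Eif4e was 3.83 in the MTR4-null nucleus and 0.938 in the WT nucleus, and 1.84 in the MTR4-null cytoplasm and 0.337 in the WT cytoplasm. Eif4e1b thus took 47.0% of the summed values of the 4 genes in the MTR4-null cytoplasm, against 14.03% in the WT cytoplasm, where Eif4e led with 41.6%. By MTR4-null to WT ratio, Eif4e1b held places 9 (nucleus) and 5 (cytoplasm) from the highest among the members, and Eif4e 52 and 40. A shift of their ratio was thus fixed by the choice of this pair.

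The 4E-BPs hold eIF4E away from eIF4G until mTOR phosphorylates them. Eif4ebp1 had 30.6 in the MTR4-null nucleus and 1.65 in the WT nucleus, the highest ratio of all 52 members there (rescaled 2.91), and 92.8 in the MTR4-null cytoplasm and 65.9 in the WT cytoplasm (1.34). Eif4ebp2 had 12.9 in the MTR4-null nucleus and 2.67 in the WT nucleus (1.08), and 64.2 in the MTR4-null cytoplasm and 18.2 in the WT cytoplasm (2.499). Eif4ebp3 had 31.8 in the MTR4-null nucleus and 7.495 in the WT nucleus (0.96, short of 2-fold), and 95.5 in the MTR4-null cytoplasm and 66.7 in the WT cytoplasm (1.36). All 3 were higher in both MTR4-null columns also as deposited. So were 11726 of the 14240 kept genes in the nucleus and 4347 in the cytoplasm. Eif4ebp1 (0.49) and Eif4ebp3 (0.51) were below 2-fold in the cytoplasm as deposited. The sum of the 3 genes over Eif4e was 0.880 in the MTR4-null nucleus and 0.105 in the WT nucleus, and 0.536 in the MTR4-null cytoplasm and 0.0856 in the WT cytoplasm. This ratio was 8.36-fold higher in MTR4-null in the nucleus and 6.27-fold higher in the cytoplasm, and a single factor per column cancels in it. A trend with level does not cancel, since Eif4e had a far higher WT cytoplasm value than the 3 genes. The nuclear and cytoplasmic medians of all kept genes were 0.73 and 0.67 below 50 in the WT cytoplasm. They were -0.060 and -0.066 from 50 to below 200, and -0.56 and -0.78 from 1000 upwards. The part of level in this ratio was not tested. The ratio was chosen after values had been seen. In the nucleus it sets a sum that holds Eif4ebp1, of the highest MTR4-null to WT ratio among the 52 members, over Eif4e, of the lowest. In the cytoplasm Eif4ebp1, Eif4ebp2 and Eif4ebp3 held places 7, 2 and 6 from the highest, and Eif4e place 40. A higher value in both compartments was thus fixed by the choice of genes. These are mRNA values, and the proteins and their phosphorylation were not measured. Eif4ebp3 lies close downstream of Ankhd1, on chromosome 18, and the exons of a same-strand GENCODE gene, AC115631.1, overlap it.

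**Figure D3:**
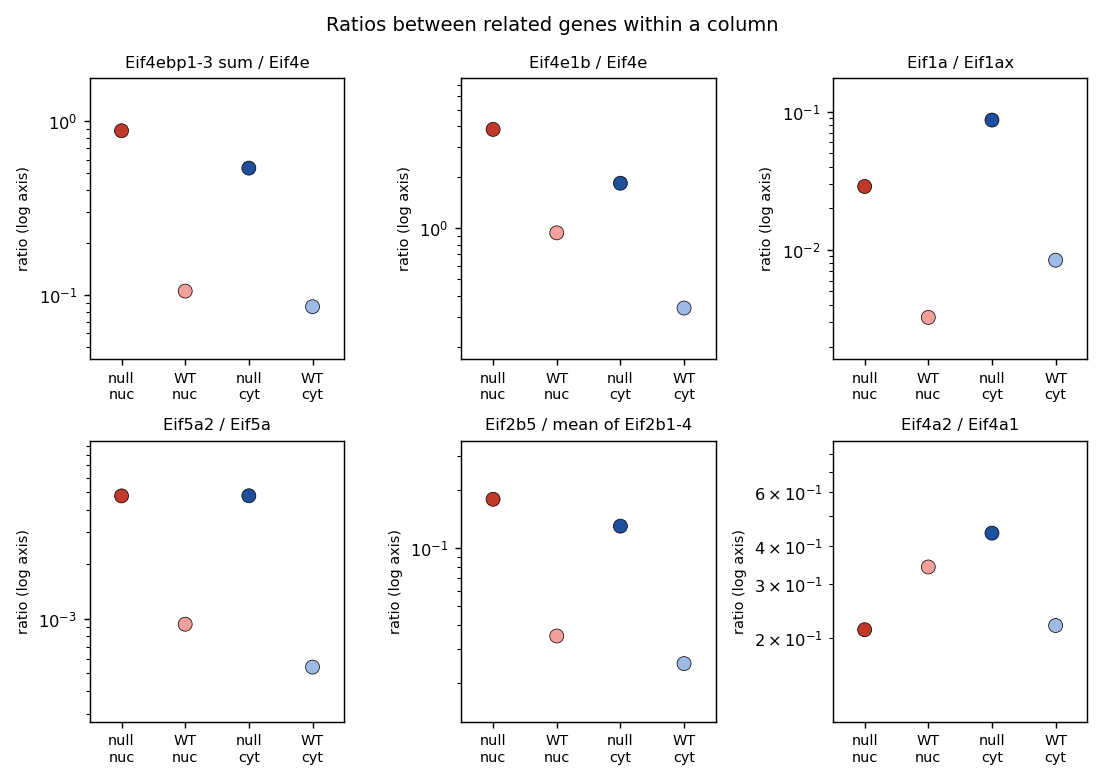
Ratios between related genes within each of the 4 columns, each panel on its own log axis. Any factor applied to a whole column cancels. The genes were chosen after values had been seen, so the shifts are no independent check of the calls. The summed 4E-BP genes over Eif4e had 0.880 and 0.536 in the MTR4-null nucleus and cytoplasm, and 0.105 and 0.0856 in the WT nucleus and cytoplasm.

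eIF4G joins cap, poly(A) tail and ribosome. Eif4g2, whose product lacks the eIF4E site and works in initiation without it, had 249 in the MTR4-null nucleus and 31.3 in the WT nucleus (rescaled 1.88), and 347 in both the MTR4-null and the WT cytoplasm (0.88). Eif4g1 had 31.1 in the MTR4-null nucleus and 14.02 in the WT nucleus (0.045), and 103 in the MTR4-null cytoplasm and 91.8 in the WT cytoplasm (1.02, which was below 2-fold after quantile or upper-quartile scaling and with a pseudocount of 5). Eif4g3 had -0.13 and -0.64. The ratio of Eif4g2 to Eif4g1 was 8.01 in the MTR4-null nucleus and 2.23 in the WT nucleus, but 3.38 in the MTR4-null cytoplasm and 3.77 in the WT cytoplasm, so that the 2 compartments did not show the same shift.

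Among the helicases, Eif4a1 and Eif4a2 unwind mRNA for initiation, and Eif4a3 is a core part of the exon junction complex. Eif4a3 had 461 in the MTR4-null cytoplasm and 2331 in the WT cytoplasm (rescaled -1.44), and -0.80 in the nucleus. Eif4a2 had 65.3 in the MTR4-null nucleus and 73.5 in the WT nucleus (-1.27), and 547 in the MTR4-null cytoplasm and 703 in the WT cytoplasm (0.53). Eif4a1 stayed within 2-fold (-0.59 and -0.48). The ratio of Eif4a2 to Eif4a1 was 0.213 in the MTR4-null nucleus and 0.342 in the WT nucleus, but 0.441 in the MTR4-null cytoplasm and 0.220 in the WT cytoplasm, and so pointed in opposite directions in the compartments. In GENCODE M21, the exons of Eif4a2 transcripts overlap 6 other genes on the same strand, among them the small nucleolar RNA genes Snord2 and Snora81. The helicase cofactors Eif4b (-0.37 and -0.06) and Eif4h (0.26 and -0.16) were within 2-fold.

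The last steps join the subunits. Eif6 had 279 in the MTR4-null nucleus and 251 in the WT nucleus (rescaled -0.95), and 563 in the MTR4-null cytoplasm and 4210 in the WT cytoplasm (-2.01). Eif5, the activator of the eIF2 GTPase (-0.56 and 0.23), Eif5b, the joining GTPase (-0.22 and 0.29), and Eif5a (-0.42 and -0.82) stayed within 2-fold. Eif5a2, the rarer hypusine factor gene, had 2.76 in the MTR4-null nucleus and 0.337 in the WT nucleus (1.34), and 7.48 in the MTR4-null cytoplasm and 2.79 in the WT cytoplasm (1.48). Its values are low, so that the added 1 weighs on these differences. The ratio of Eif5a2 to Eif5a was 0.00475 in the MTR4-null nucleus and 0.000934 in the WT nucleus, and 0.00476 in the MTR4-null cytoplasm and 0.000542 in the WT cytoplasm. By MTR4-null to WT ratio, Eif5a2 held places 3 (nucleus) and 4 (cytoplasm) from the highest among the members, and Eif5a 25 and 32. This shift too was thus fixed by the choice of genes.

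**Figure D4:**
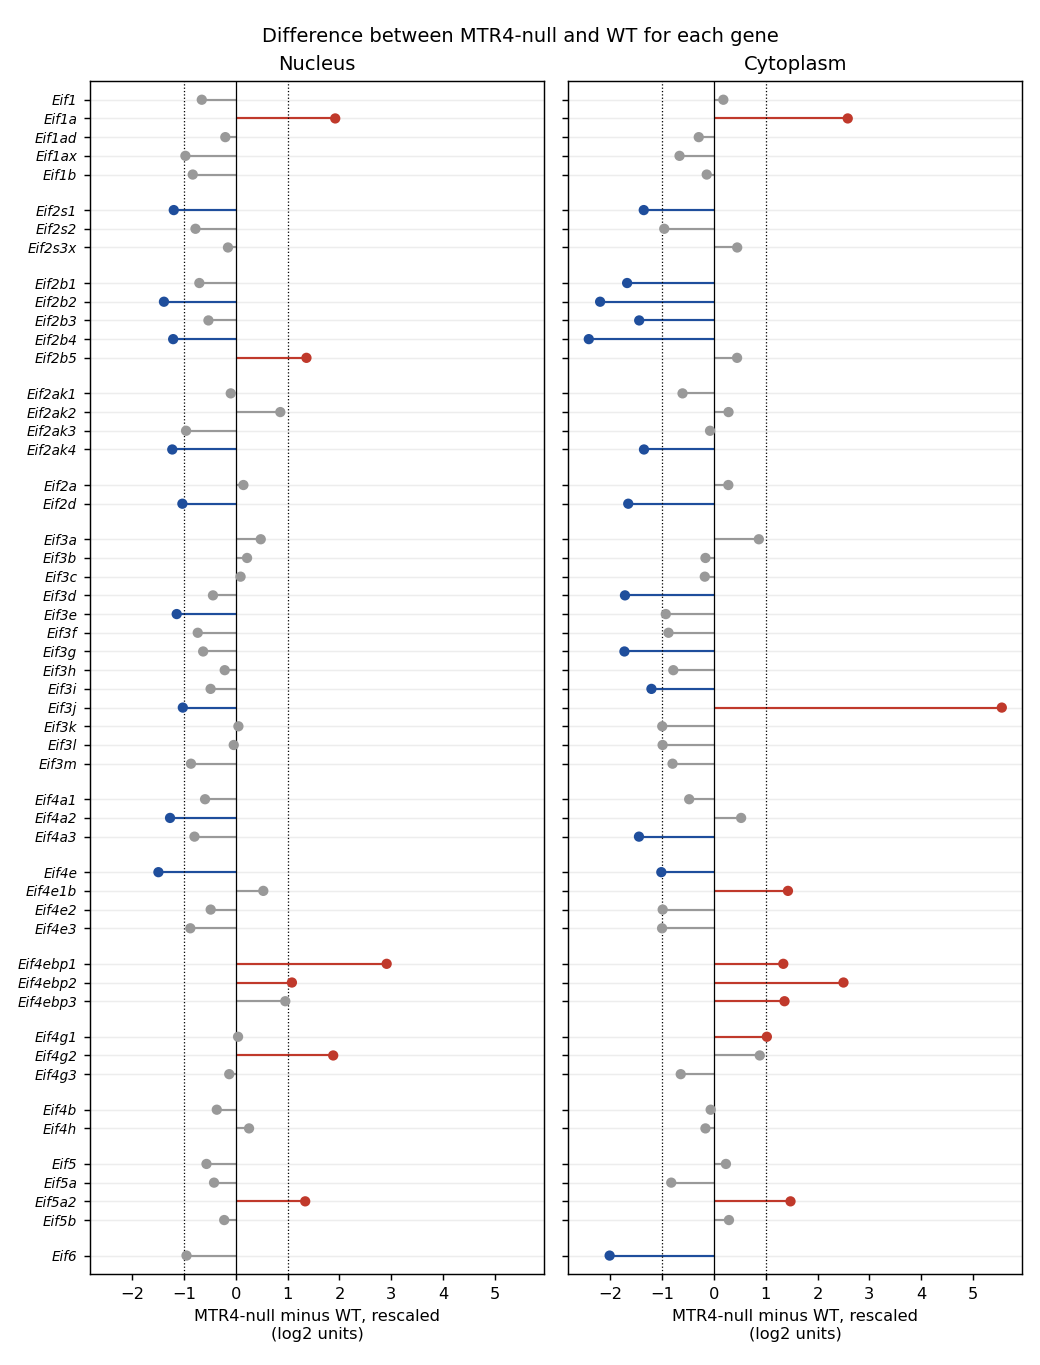
Rescaled log2 difference of MTR4-null minus WT for each gene in the nucleus (left) and the cytoplasm (right), on a common axis, with dotted lines at 2-fold. Red genes are at least 2-fold higher (6 nuclear and 8 cytoplasmic calls) and blue genes at least 2-fold lower (9 nuclear and 13 cytoplasmic calls).

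The nuclear and cytoplasmic comparisons share no column. Eif1a, Eif4ebp1, Eif4ebp2 and Eif5a2 were at least 2-fold higher in MTR4-null in both, 7.69% of the kept members, against 16.2% of all kept genes. Eif2ak4, Eif2b2, Eif2b4, Eif2d, Eif2s1 and Eif4e were at least 2-fold lower in both, 11.5% of the kept members, against 8.61% of all kept genes. In all, 25 of the 52 members were called in at least 1 compartment, against 59.1% of all kept genes, so that such a call was no more frequent among members. The 4 genes higher in both had WT cytoplasm values from 2.79 to 65.9, and the 6 genes lower in both from 118 to 1763.

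The WT nucleus was compared with the WT cytoplasm to see where each mRNA was held. Initiation factor mRNAs were spread like the typical mRNA: 47 of the 52 members lay within 2-fold after rescaling, with a median of -0.23 against -0.13 for all kept genes. Of the others, 3 were higher in the nucleus and 2 lower, against 9.36% and 8.05% of all kept genes (1 and 50 as deposited, against 1.74% and 91.2%). The oocyte cap binder gene Eif4e1b was higher in the nucleus relative to the typical gene, with 105 there against 595 in the WT cytoplasm (1.10), as were Eif2ak2 (1.34) and, with the reservation on its second copy, Eif3j (5.81). Eif4ebp1 (-1.56) and Eif1a (-1.12), both with values under 2 in the WT nucleus, were lower. The nuclear excess of Eif4e1b (-2.48) and Eif2ak2 (-0.91) turned in sign as deposited. All 5 eIF2B genes lay below 0, from -0.78 to -0.19, as did 34 of the 52 members and 8202 of the 14240 kept genes.

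In the MTR4-null oocytes 48 of the 52 members lay within 2-fold between nucleus and cytoplasm, with a median of 0.022 against -0.035 for all kept genes. There 2 members were higher in the nucleus and 2 lower, against 12.1% and 9.3% of all kept genes (0 and 46 as deposited, against 2.91% and 71.9%). Eif2ak2 (1.92) and Eif4g2, with 249 in the MTR4-null nucleus and 347 in the MTR4-null cytoplasm (1.12; -0.48 as deposited), were higher. Eif1a (-1.79) and Eif4a2, with 65.3 in the MTR4-null nucleus and 547 in the MTR4-null cytoplasm (-1.45), were lower. The 5 eIF2B genes all lay above 0 here, from 0.17 to 0.73, though each of them lay below 0 as deposited. Above 0 after rescaling were 28 of the 52 members and 6821 of the 14240 kept genes.

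**Figure D5:**
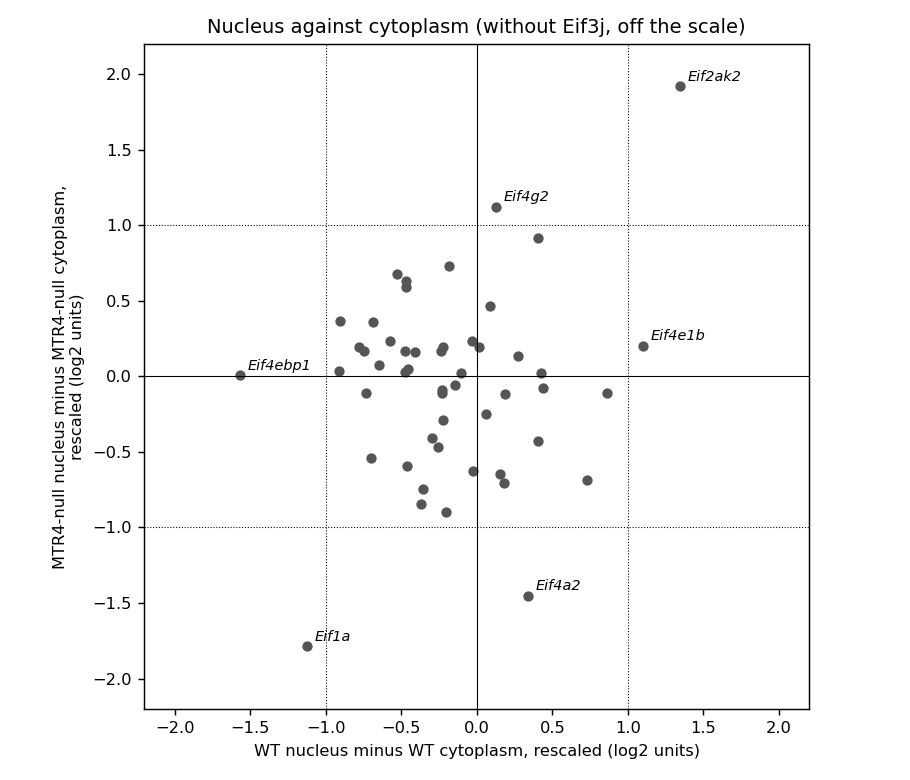
Rescaled log2 difference of nucleus minus cytoplasm in MTR4-null oocytes (vertical axis) against the same in WT oocytes (horizontal axis) for 51 initiation factor genes, without Eif3j, with dotted lines at 2-fold. Named genes passed 2-fold on at least 1 axis; most points lie inside the central square.

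The nucleus minus cytoplasm difference of MTR4-null was then set against that of WT, with the same 4 columns. It was at least 2-fold higher in MTR4-null for 6 members and lower for 3, against 17.1% and 15.1% of all kept genes (46 and 1 as deposited, against 71.7% and 3.32%). The 6 were Eif4ebp1 (1.57), Eif3d (1.28), Eif2b4 (1.21), Eif3g (1.10), Eif6 (1.06) and Eif3k (1.05), and the 3 were Eif3j (-6.57), Eif4a2 (-1.79; 0.19 as deposited) and Eif4ebp2 (-1.42; 0.15 as deposited). Of these, Eif3d, Eif2b4, Eif3g and Eif6 are among the genes that were lower in the MTR4-null cytoplasm, a column that enters this difference too. All 5 eIF2B genes had a higher value, from 0.81 to 1.21, and only Eif2b4 of them passed 2-fold. A higher value was found for 30 of the 52 members and 7568 of the 14240 kept genes (51 members as deposited). Of the 4E-BP genes, Eif4ebp1 and Eif4ebp2 were called in opposite directions here.

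Genes around the initiation factors were taken from lists chosen with earlier results of these data known. Of 27 partner genes, such as poly(A)-binding proteins and eIF2 or eIF4E regulators, 5 were at least 2-fold higher and 4 lower in the MTR4-null nucleus (13 and 1 as deposited), and 7 higher and 4 lower in the cytoplasm (3 and 12 as deposited). These shares, 18.5% and 14.8% in nuclei and 25.9% and 14.8% in cytoplasms, were near or below the 25.6% and 16.4%, and 23.9% and 19.0%, of all kept genes. Larp1, which binds mRNAs of the translation machinery, had 12.4 in the MTR4-null nucleus and 0.755 in the WT nucleus (rescaled 2.55), and 48.5 in the MTR4-null cytoplasm and 9.78 in the WT cytoplasm (2.82). Denr, a partner in reinitiation, had 2.24 and 2.06, and Pabpc1, the main poly(A)-binding protein gene, 2.11 and 1.92. Dhx29, a helicase for structured mRNA starts, was lower in both compartments (-1.32 and -2.21), as was Paip2, an inhibitor of poly(A)-binding protein (-1.70 and -1.32). The eIF4E transporter gene Eif4enif1 lay within 2-fold (-0.58 and -0.35).

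Of 14 mTOR pathway genes, which act upstream of the 4E-BPs, 4 were higher and 3 lower in the MTR4-null nucleus (7 and 0 as deposited), and 4 higher and 0 lower in the cytoplasm, a balance that turned as deposited (2 and 3). The share of higher genes, 28.6% in each, was near that of all kept genes. Rptor (2.68 and 1.75), Mlst8 (1.10 and 1.30) and Tsc1 (1.21 and 1.31) were higher in both, though as deposited the cytoplasmic differences of Mlst8 (0.51) and Tsc1 (0.47) were below 2-fold. The kinase gene Mtor lay within 2-fold (-0.31 and -0.73). Of 13 genes of elongation, termination and hypusine synthesis, 12 passed the filter, with 2 higher and 2 lower in the nucleus (4 and 0 as deposited), and 1 higher and 2 lower in the cytoplasm (0 and 5 as deposited). Their shares, 16.7% and 16.7%, and 8.33% and 16.7%, were near or below those of all kept genes. The hypusine enzyme genes Dhps (2.23 and 0.25) and Dohh (1.74 and 0.31) were the ones higher in the nucleus. The elongation factor gene Eef1a1 had 1719 in the MTR4-null cytoplasm and 7198 in the WT cytoplasm (-1.18), and Eef1d had 496 and 2166 (-1.23).

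Other properties of the members were examined. Their longest coding transcripts in GENCODE M21 went with level: the Spearman correlation of length with the WT cytoplasm value was -0.59 over 52 members, and that of length with the difference of MTR4-null to WT was 0.13 for the nuclei and 0.38 for the cytoplasms. The values are named per length, and the genes share their columns. Near-identical copies, at 95% identity over 300 bases in a gene that does not overlap, were found for 15 of the 53 members, among them Eif1, Eif1a, Eif2s1, Eif3j, Eif4a3, Eif4e and Eif4e1b, and the exons of 21 members overlap another annotated gene on either strand. Values of these genes are uncertain where the authors' counting could split reads.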

How the data were processed

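The deposited values, which the authors named FPKM per the file headers, fill 4 columns for 13 libraries and were treated as a score, since the column totals differ too much for a common scale. Per the submitters' processing notes, the tools were Cufflinks 2.2.1 and TopHat2 2.1.1 and the build was mm9, with no roles or settings named. How columns were averaged or scaled, and the read depth, are not given in the sources used here. A limma fit was planned, but it could not be run with 1 column per genotype and compartment, so that differences are described by size and no test was made. Divisors (genes above 0 in every column, 14273) were 0.604 for the MTR4-null nucleus, 0.281 for the WT nucleus, 1.84 for the MTR4-null cytoplasm and 3.41 for the WT cytoplasm. The calculation, in Python 3.11.15 with pandas 2.3.3, was tested on simulated data. Named with their values are members called in at least 1 of the first 4 comparisons (26) and the 3 highest in the WT cytoplasm, others mostly by their differences. Members and lists were chosen with earlier results of these data known. The ratios, level ranges and motifs were chosen after values had been seen. A comparison of protein sequences was planned and not made.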

Additional observations from a re-analysis of the deposited data

Results flagged for a closer look

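Eif3j was at least 2-fold lower in MTR4-null in the nucleus (rescaled log2 difference -1.02) and at least 2-fold higher in the cytoplasm (5.55). It was the only member with calls in opposite directions in the 2 compartments. The difference between compartments was not tested, since each column is a single value. The cytoplasmic figure rests on the value of 0.0422 in the WT cytoplasm.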

How the results depend on the processing

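No paired analysis was possible because the table holds no column of a single library, and leaving out replicates was not run for the same reason. Each of the 54 called values of members was recomputed under 9 other settings, where the gene was still counted. Direction turned only with values as deposited, for 7 of them: Eif2d (0.061) and Eif3j (0.054) in MTR4-null against WT nuclei, Eif2ak2 (-0.91) and Eif4e1b (-2.48) in WT nucleus against cytoplasm, Eif4g2 (-0.48) in MTR4-null nucleus against cytoplasm, and Eif4a2 (0.19) and Eif4ebp2 (0.15) in the difference of both. Counts of higher and lower members as deposited were 17 and 0, 4 and 32, 1 and 50, 0 and 46, and 46 and 1 for the 5 comparisons in the order of the report. A pseudocount of 5 left 1 member lower in the WT nucleus and 1 higher in the MTR4-null nucleus, each against its cytoplasm, and so did a minimum of 5 for the second. Leaving out members with a near-identical copy, chosen after seeing the data, left 4 lower in the MTR4-null nucleus against WT, 5 higher in the MTR4-null cytoplasm against WT, 1 higher and 1 lower in the WT nucleus against cytoplasm, 0 lower in the MTR4-null nucleus against cytoplasm and 1 lower in the difference of both. Beside the 7 that turned, values as deposited took 12 called values below 2-fold, quantile normalization took 10 and a pseudocount of 5 took 9. Read depth is unknown.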
